A study of Mus musculus with 8 samples.

Results

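Integrins and homing receptors are the surface proteins by which a blood stem cell holds to its place in the bone marrow, leaves it and finds it again. The 9 genes described here were chosen by symbol: the integrin subunit genes Itga4, Itga5, Itga6, Itgal, Itgb1 and Itgb2, the chemokine receptor gene Cxcr4, the sphingosine-1-phosphate receptor gene S1pr1 and the hyaluronan receptor gene Cd44. All 9 were found among the 33641 gene symbols of the series, and all 9 passed the filter on low values, which left 16064 genes to test. The list was proposed with earlier results of these data in view.

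RNA was sequenced from sorted haematopoietic stem cells of C57BL/6 mouse bone marrow, in 4 genotypes with 2 libraries each. The null genotypes were Scribble-/- (called Scribble null below), Taz-/-;Yap1-/- (Yap1 Taz null) and Scribble-/-;Taz-/-;Yap1-/- (triple null), and the control was wild type. Every mouse, wild type included, carried Mx1-Cre, a recombinase driven by an interferon-responsive promoter, and received 6 intraperitoneal injections of polyI:C, which imitates viral RNA and sets off an interferon response, at 10 mg/kg. Cells were taken 1 week after induction. The controls therefore share the recombinase and the interferon stimulus with the null genotypes. Mx1-Cre also recombines in cells other than stem cells, so the marrow around these cells may have been recombined too. The labels number the libraries of a genotype as experiments 1 and 2. The ages of the mice, and whether a library came from 1 animal or from a pool, are not given in the labels. It is also not stated that both libraries of a group are from different animals. The p-values rest on the spread between the 2 libraries of a genotype, pooled over the 4 genotypes. Part or all of that spread may be technical. In bulk RNA, fewer cells of a type and less RNA per cell cannot be told apart.

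An integrin is a pair of an alpha and a beta chain. Alpha 4 beta 1 (VLA-4) binds VCAM-1 and fibronectin, alpha 5 beta 1 (VLA-5) binds fibronectin, alpha 6 beta 1 binds laminins, and alpha L beta 2 (LFA-1) binds ICAM proteins. CXCR4 answers the chemokine CXCL12 made by marrow stromal cells and is known for keeping stem cells in the marrow, whereas S1PR1 senses sphingosine-1-phosphate, which is abundant in blood, and is known for guiding cells out of tissues. CD44 binds hyaluronan and helps homing cells to anchor.

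Values are TPM, transcript abundance corrected for transcript length and scaled to 1000000 per library. Because every library is scaled to the same total, how deeply each was sequenced is unknown. Between 14024 and 14970 genes reached 1 TPM in a library, and correlations of log2 values across genes were 0.953 to 0.965 between the libraries of a genotype and 0.926 to 0.958 between libraries of different genotypes. The targeted genes did not check the labels, since a level summed over a whole gene cannot show the loss of single exons. Scrib was 6.25 and 7.63 TPM in Scribble null, 7.98 and 7.32 TPM in Yap1 Taz null, 14.5 and 7.54 TPM in triple null and 8.19 and 9.29 TPM in wild type. Yap1 was 5.83 and 2.45 TPM in Scribble null, 2.13 and 6.63 TPM in Yap1 Taz null, 2.25 and 2.37 TPM in triple null and 2.0 and 2.15 TPM in wild type. Wwtr1, the gene of the TAZ protein, was 5.32 and 3.91 TPM in Scribble null, 1.09 and 1.15 TPM in Yap1 Taz null, 1.92 and 0.775 TPM in triple null and 0.73 and 1.19 TPM in wild type. Every genotype named below is the one on the library's label, and every direction is between libraries labelled in that way. The Y-linked genes Ddx3y, Eif2s3y and Kdm5d were low in both libraries labelled Yap1 Taz null (2.05 to 7.31 TPM) and between 18.1 and 64.1 TPM in the other 6, so a difference in sex cannot be told apart from genotype in comparisons with that group. All 12 stem cell markers reached 1 TPM in at least 2 libraries, and their summed level was 2130 to 2550 TPM in the null libraries, against 2090 and 2050 TPM in wild type. Members of the list did not run together, and none was called against wild type. Ly6a was at 148 to 255 TPM in the null libraries, against 359 and 417 TPM in wild type, whereas Kit was at 384 to 532 TPM in the null libraries, against 268 and 281 TPM in wild type.

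**Figure D1:**
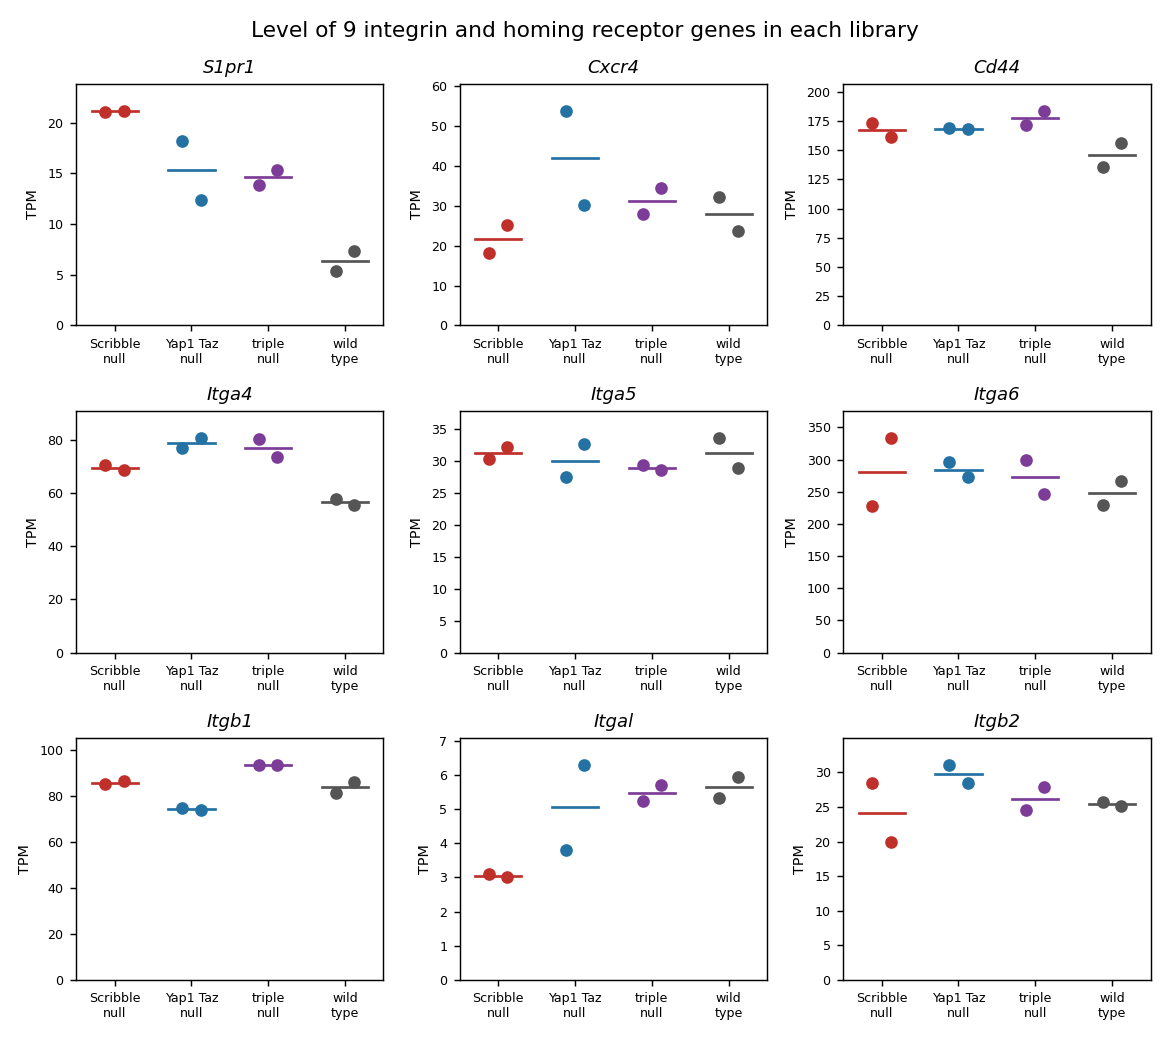
Level in TPM (vertical axis, from 0) of each of the 9 genes in the 2 libraries (points) of the 3 null genotypes and wild type, with the mean as a line. S1pr1 was at 12.4 to 21.2 TPM in the 6 null libraries and at 5.34 and 7.34 TPM in wild type, while Itga5 was at 27.4 to 33.6 TPM throughout.

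As levels per length, the 9 genes spanned a wide range that kept nearly the same order in each genotype. Itga6 was highest in every library, at 228 to 334 TPM, followed by Cd44 at 136 to 184 TPM. Itgb1 and Itga4 came next, and they changed places in libraries labelled Yap1 Taz null, where Itga4 averaged 78.9 ± 2.74 TPM and Itgb1 74.3 ± 0.858 TPM (mean ± SD, n = 2). In wild type Itgb1 averaged 83.7 ± 3.36 TPM and Itga4 56.8 ± 1.64 TPM. Itga5, Cxcr4 and Itgb2 lay between 18.1 and 53.9 TPM, and in wild type the neighbours in their order overlapped. S1pr1 was eighth and Itgal last in each genotype. In wild type these lowest members overlapped, whereas in the null genotypes S1pr1 stood clear of Itgal, and in Scribble null it overlapped Cxcr4 above it.

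S1pr1 was the 1 member that passed the test. It stood at 21.1 and 21.2 TPM in libraries labelled Scribble null, at 18.2 and 12.4 TPM in Yap1 Taz null and at 13.9 and 15.3 TPM in triple null, against 5.34 and 7.34 TPM in wild type. All 6 null libraries lay above both wild-type ones, with the Scribble null pair highest. In Scribble null cells S1pr1 rose to 3.34 times the wild-type mean, 21.2 ± 0.074 TPM against 6.34 ± 1.41 TPM (SD, n = 2), a difference of 1.61 ± 0.26 (SE) on the log2(TPM + 1) scale with an adjusted p of 0.0348 by limma. The difference in Yap1 Taz null was 1.14 (95% interval 0.53 to 1.75, adjusted p = 0.119) and that in triple null 1.10 (0.49 to 1.71, adjusted p = 0.178), neither past the threshold of 0.05. Fold changes on this scale understate the change of low genes. S1pr1 lies on chromosome 3 (115710433 to 115715072, minus strand, mm10), where no annotated gene overlaps its exons, and no near-identical copy of its transcript was found.

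The Scribble null call sat close to the threshold. Without wild type 1 the adjusted p was 0.242 (log2 difference 1.41) and without wild type 2 it was 0.0807. Without Scribble null 1 and 2 it was 0.165 and 0.077, and it was 0.086 when triple null 1 was left out and 0.0859 when triple null 2 was. It stayed past the threshold without Yap1 Taz null 1 (0.0499) or 2 (0.0472). With the replicate number as a block the adjusted p was 0.0675, with only the 2 groups compared it was 0.13, and with no filter on low values it was 0.0744. The log2 difference itself ranged from 1.41 to 1.80 over the libraries left out, so it was the call and not the direction that moved.

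**Figure D2:**
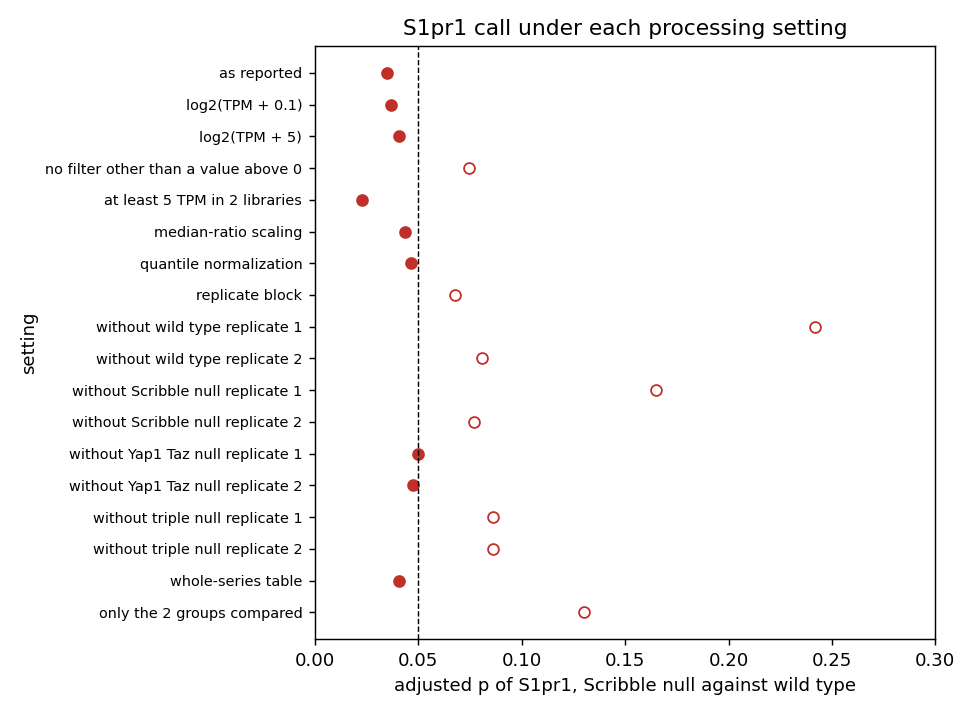
Adjusted p of S1pr1 for Scribble null against wild type (horizontal axis) under each processing setting (vertical axis), with the threshold of 0.05 as a dashed line and filled points below it. The points run between 0.0227 with a stricter filter and 0.242 without wild type replicate 1.

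S1pr1 was not called between the null genotypes. Triple null stood below Scribble null in both libraries, at 14.6 ± 1.03 TPM against 21.2 ± 0.074 TPM (SD, n = 2), a log2 difference of −0.51 with a 95% interval of −1.12 to 0.10 (limma, adjusted p = 0.624). Triple null and Yap1 Taz null overlapped, with a difference of −0.05 (−0.66 to 0.57). The difference of triple null from wild type was also set against the sum of the Scribble null and Yap1 Taz null differences. The departure from that sum, −1.65 on the log2 scale (95% interval −2.52 to −0.79), had an unadjusted p of 0.00225 and an adjusted p of 0.122 by limma, so it was not called.

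S1pr1 is also expressed by lymphocytes and endothelial cells, and the summed markers of these cells are given beside it. The 6 T cell markers summed to 30.5 and 23.3 TPM in Scribble null, 28.3 and 28.1 TPM in Yap1 Taz null and 22.1 and 23.5 TPM in triple null, against 19.8 and 17.7 TPM in wild type. Cd3d and Lck made up most of this, while Cd3e, Cd3g and Trac stayed below 1 TPM in every library. The 6 B cell markers summed to 15.6 and 15.7 TPM in Scribble null, 19.9 and 20.9 TPM in Yap1 Taz null and 21.8 and 21.0 TPM in triple null, against 13.4 and 18.6 TPM in wild type, nearly all of it Cd79b. The 5 endothelial markers summed to 162 and 157 TPM in Scribble null, 150.0 and 133 TPM in Yap1 Taz null and 186 and 126 TPM in triple null, against 95.3 and 125 TPM in wild type. Most of this came from Vwf, Pecam1 and Tek, which stem cells express too, whereas the endothelial cadherin gene Cdh5 was below 1 TPM in every library. Cdh5 was 0.456 and 0.52 TPM in Scribble null, against 0.0 and 0.0137 TPM in wild type. In Yap1 Taz null it was 0.865 and 0.0718 TPM, and in triple null 0.113 and 0.0765 TPM. Kdr was 2.78 and 3.53 TPM in Scribble null, against 0.786 and 0.981 TPM in wild type. Its values were 1.18 and 1.43 TPM in Yap1 Taz null and 0.743 and 1.19 TPM in triple null. No gene of these 3 lists was called in a comparison with wild type. The shares of all genes called were 1.30% in Scribble null, 0.990% in Yap1 Taz null and 0.579% in triple null. The part of these cells in the S1pr1 result was not tested.

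Cxcr4, the partner of S1pr1 in holding or releasing cells, varied widely between replicates. It was 18.1 and 25.3 TPM in Scribble null, 53.9 and 30.1 TPM in Yap1 Taz null and 28.0 and 34.4 TPM in triple null, against 32.3 and 23.6 TPM in wild type. Each null genotype overlapped wild type. Limma gave log2 differences of −0.35 (95% interval −1.08 to 0.37) in Scribble null, 0.53 (−0.19 to 1.25) in Yap1 Taz null and 0.16 (−0.56 to 0.89) in triple null, with adjusted p of 0.59, 0.484 and 0.889. These intervals leave room for changes of either sign. Set against S1pr1 within each library, Cxcr4 was 0.857 and 1.19 times S1pr1 in Scribble null, 2.96 and 2.42 times in Yap1 Taz null and 2.02 and 2.24 times in triple null, against 6.04 and 3.22 times in wild type. No null library reached either wild-type ratio. This ratio reuses the levels above and is not a separate result.

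Among the beta 1 integrins, Itga4, the alpha chain of VLA-4, was above wild type in every null library. It was 70.4 and 68.7 TPM in Scribble null, 76.9 and 80.8 TPM in Yap1 Taz null and 80.4 and 73.4 TPM in triple null, against 57.9 and 55.6 TPM in wild type. No null library overlapped the wild-type pair, and the ratios of means were 1.23, 1.39 and 1.35. Limma gave log2 differences of 0.29 (95% interval −0.02 to 0.60), 0.47 (0.16 to 0.78) and 0.43 (0.12 to 0.74) in the same order of genotypes, with adjusted p of 0.306, 0.19 and 0.293. None of these passed the threshold of an adjusted p under 0.05. The median difference of all 16064 genes from wild type was 0.14 in Scribble null, 0.14 in Yap1 Taz null and 0.12 in triple null. Scaling each library by median ratios, which brought these medians to 0.01, 0.00 and −0.00, left Itga4 at 0.13, 0.31 and 0.30. An exon of Cerkl lies over Itga4 on the opposite strand (Itga4, chromosome 2, 79255426 to 79333123, mm10), and whether counting used strand is not given in the sources used here. Cerkl was at 6.18 to 21.5 TPM in the 8 libraries. Its means were 14.9 TPM in Scribble null, 13.9 TPM in Yap1 Taz null and 13.1 TPM in triple null, against 8.36 TPM in wild type. No difference of Cerkl from wild type was called. The part of Cerkl reads in the Itga4 values was not tested.

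Itgb1, the shared beta chain, was steady within each genotype. It was 85.1 and 86.5 TPM in Scribble null, 74.9 and 73.7 TPM in Yap1 Taz null and 93.5 and 93.3 TPM in triple null, against 81.3 and 86.0 TPM in wild type. The Yap1 Taz null pair lay below both wild-type libraries and the triple null pair above them. The log2 differences from wild type were small, −0.17 (95% interval −0.46 to 0.12) for Yap1 Taz null and 0.16 (−0.13 to 0.45) for triple null, with adjusted p of 0.571 and 0.679 by limma. Triple null set against Yap1 Taz null gave 0.33 (0.04 to 0.62), with an unadjusted p of 0.0312 and an adjusted p of 0.536. Itga4 was 1.03 and 1.10 times Itgb1 in Yap1 Taz null and 0.713 and 0.646 times Itgb1 in wild type, as ratios of levels per length, with Scribble null and triple null between them at 0.786 to 0.859.

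Yap1 and TAZ act through TEAD factors, whose best-known recognition letters are GGAATG. RefSeq promoter windows (GRCm38.p6, 250 bases before to 50 after a gene's start) were at hand for 5 of the 9 genes, Itga4, Itga5, Itgb1, Cxcr4 and Cd44. These letters, searched on both strands, stood in 1 of the 5, that of Itgb1, and in 14.7% of all 32851 windows of this length. The Itgb1 window is shown because it was the 1 with a match. Itgb1 was not called in Yap1 Taz null or in triple null, which both lack Yap1 and Taz by label (limma, adjusted p = 0.571 and 0.679). A link between these letters and the level of Itgb1 was not tested. The window lies at chr8:128685404-128685703 on the plus strand, with the match in capitals, beginning 7 bases before the start.
Itgb1: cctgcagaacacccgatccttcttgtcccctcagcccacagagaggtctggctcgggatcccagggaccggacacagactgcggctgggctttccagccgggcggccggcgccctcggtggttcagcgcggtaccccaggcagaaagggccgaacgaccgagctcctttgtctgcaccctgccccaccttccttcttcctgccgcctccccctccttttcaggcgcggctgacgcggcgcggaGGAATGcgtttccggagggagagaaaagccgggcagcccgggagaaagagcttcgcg
The match is a description of these letters and not of a bound site.

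Itga6, the laminin receptor chain and the member with the highest level, differed most between replicates of Scribble null. It was 228 and 334 TPM there, 296 and 273 TPM in Yap1 Taz null and 299 and 246 TPM in triple null, against 229 and 267 TPM in wild type. Only the Yap1 Taz null pair lay clear of wild type, and the log2 differences of 0.16, 0.20 and 0.13 had 95% intervals that spanned 0 in all 3 genotypes. Itga6 was 2.63 to 3.96 times Itgb1 over the 8 libraries as levels per length. Itgb4, its other known partner, was at 0.637 to 7.67 TPM. Itga5, the alpha chain of VLA-5, was 30.2 and 32.2 TPM in Scribble null, 27.4 and 32.6 TPM in Yap1 Taz null and 29.3 and 28.5 TPM in triple null, against 33.6 and 28.8 TPM in wild type. Each null genotype overlapped wild type, and the log2 differences were 0.01 (95% interval −0.41 to 0.42), −0.06 (−0.47 to 0.36) and −0.10 (−0.52 to 0.31).

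Of the LFA-1 pair, Itgal, the alpha L chain, was the lowest member. It was 3.09 and 3.0 TPM in Scribble null, 3.80 and 6.30 TPM in Yap1 Taz null and 5.25 and 5.70 TPM in triple null, against 5.34 and 5.95 TPM in wild type. The Scribble null pair lay below every other library. Its mean was 54.0% of wild type, a log2(TPM + 1) difference of −0.71 (95% interval −1.43 to 0.00) that limma did not call (unadjusted p = 0.0505, adjusted p = 0.276). Triple null set against Scribble null gave 0.68 (−0.04 to 1.39, adjusted p = 0.565). Itgb2, the beta chain that LFA-1 shares with other leukocyte integrins, was 28.4 and 19.9 TPM in Scribble null, 31.1 and 28.4 TPM in Yap1 Taz null and 24.5 and 27.9 TPM in triple null, against 25.7 and 25.1 TPM in wild type. The Yap1 Taz null pair lay above both wild-type libraries and the others overlapped them, and the adjusted p was 0.673 or more in each. Itgb2 was 4.22 to 9.2 times Itgal, with the Scribble null libraries at 9.2 and 6.62.

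Cd44 was 173 and 161 TPM in Scribble null, 169 and 168 TPM in Yap1 Taz null and 172 and 184 TPM in triple null, against 136 and 156 TPM in wild type. Like S1pr1 and Itga4, it lay above both wild-type libraries in all 6 null ones. The log2 differences were 0.19 (95% interval −0.10 to 0.48), 0.21 (−0.08 to 0.49) and 0.29 (from just under 0 to 0.57), with adjusted p of 0.455, 0.492 and 0.456 by limma. With median-ratio scaling they were 0.04, 0.05 and 0.15. Genes with all 6 null libraries above both wild-type ones made up 13.1% of those tested, beside 3 of these 9, and 4.87% had all 6 below, beside none of the 9.

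**Figure D3:**
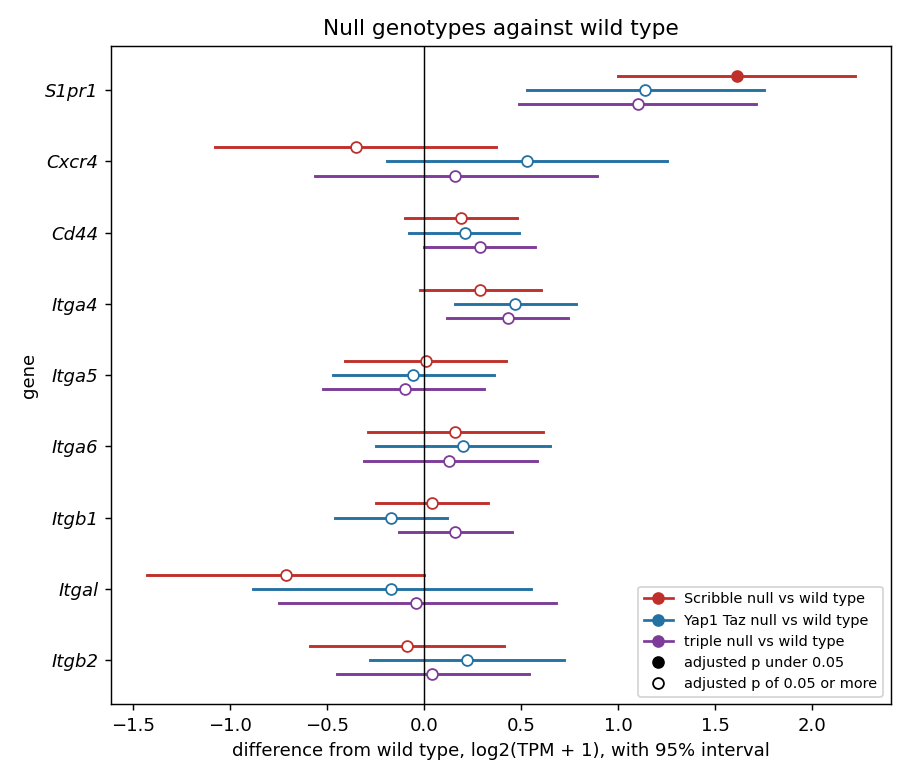
Difference of each null genotype from wild type on the log2(TPM + 1) scale (horizontal axis) for each of the 9 genes (vertical axis), with 95% intervals from limma. The 1 filled point, S1pr1 in Scribble null at 1.61, had an adjusted p under 0.05, and all others are open.

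Counted together, 1 of 9 genes was called in Scribble null against wild type, where 1.30% of all genes tested were called. None was called in Yap1 Taz null, where 0.990% were, or in triple null, where 0.579% were, and at an unadjusted p under 0.05 limma gave 1, 2 and 2 of the 9 in these 3 comparisons, where 18.2%, 14.3% and 10.9% of all genes were. None was called between triple null and Scribble null (0.212% of all genes called, none of the 9 at an unadjusted p under 0.05, where 9.15% of all genes were) or between triple null and Yap1 Taz null (0.181% called, 1 of the 9 at an unadjusted p under 0.05, where 8.41% were). None was called for the departure from additivity either, where 0.635% of all genes were called and 1 of the 9, beside 14.5% of all genes, had an unadjusted p under 0.05. Libraries did not overlap for 4 of the 9 genes in Scribble null against wild type, 6 in Yap1 Taz null and 4 in triple null, where 48.9%, 46.6% and 45.1% of all genes did not. At 9 genes these counts can be read only beside those shares. The comparisons with wild type share the same control libraries.

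The wider family was followed through 4 lists of related genes, which like the 9 genes were chosen with earlier results in view. Of the 20 other integrin subunit genes, 13 passed the filter. Itgb3 and Itgam were called higher in Scribble null, where 1.30% of all genes were called, and none was called lower. Itgb7 was lower without a call, at 3.74 and 3.59 TPM in Scribble null against 7.97 and 7.5 TPM in wild type. Its log2 difference was −0.90 (limma, adjusted p = 0.166). None was called in Yap1 Taz null, where 0.990% of all genes were, or in triple null, where 0.579% were. At an unadjusted p under 0.05 limma gave 6 of 13 in Scribble null, where 18.2% of all genes were, 4 in Yap1 Taz null, where 14.3% were, and 4 in triple null, where 10.9% were. The median log2 difference of the 13 was 0.33 in Scribble null, 0.40 in Yap1 Taz null and 0.22 in triple null, beside 0.14, 0.14 and 0.12 for all genes.

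Itgb3 encodes the beta 3 chain, known as a partner of alpha v and of the platelet chain alpha IIb. It was 63.3 and 68.5 TPM in Scribble null, 37.7 and 34.9 TPM in Yap1 Taz null and 50.1 and 52.4 TPM in triple null, against 18.6 and 28.5 TPM in wild type. All 6 null libraries lay above wild type, and the log2 differences were 1.48 in Scribble null (limma, adjusted p = 0.0216), 0.63 in Yap1 Taz null (0.245) and 1.12 in triple null (0.0896). The Scribble null call held in 10 of 17 other settings, and it was lost without wild type 1 (adjusted p = 0.11), Scribble null 1 (0.105) or 2 (0.0595), or triple null 1 or 2 (0.0589 each). Itgb3 also belongs to a list of 6 megakaryocyte and platelet markers. Their summed level was 392 and 401 TPM in Scribble null, 558 and 551 TPM in Yap1 Taz null and 431 and 480 TPM in triple null, against 1100 and 1240 TPM in wild type. Pf4, a platelet chemokine, made up most of the wild-type sum and ran opposite to Itgb3, at 94.9 and 98.9 TPM in Scribble null and 816 and 958 TPM in wild type. Itga2b, the alpha IIb chain, was 125 and 133 TPM in Scribble null and 127 and 134 TPM in wild type. Itgav, the alpha v chain, was 26.9 and 17.1 TPM in Scribble null and 7.12 and 11.4 TPM in wild type. In Yap1 Taz null it was 14.9 and 13.6 TPM, and in triple null 17.9 and 14.2 TPM. The difference of Itgav in Scribble null was not called (limma, log2 difference 1.17, adjusted p = 0.114). The part of megakaryocytes or platelets in the Itgb3 result was not tested.

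Itgam, the alpha M chain that pairs with beta 2 on myeloid cells, was low throughout. It was 12.3 and 7.83 TPM in Scribble null, 3.90 and 7.01 TPM in Yap1 Taz null and 10.6 and 8.52 TPM in triple null, against 2.0 and 0.922 TPM in wild type. The log2 differences were 2.18 in Scribble null (limma, adjusted p = 0.0443), 1.38 in Yap1 Taz null (0.182) and 2.13 in triple null (0.0772). The Scribble null call held in 2 of 17 other settings, which makes it the least steady of the calls here, and leaving out any 1 of the 8 libraries ended it, with adjusted p of 0.0576 to 0.207. The 8 neutrophil and monocyte markers summed to 242 and 208 TPM in Scribble null, 213 and 177 TPM in Yap1 Taz null and 295 and 240 TPM in triple null, against 220 and 259 TPM in wild type. Nearly all of that was Lyz2, and S100a8 and Ly6g were at 0 in every library. The low members of this list did not run together. Elane was 1.02 and 0.941 TPM in Scribble null, against 0.0 TPM in both wild-type libraries. It was 0.0 and 0.0893 TPM in Yap1 Taz null and 1.21 and 0.224 TPM in triple null. Cd14 was 6.84 and 2.6 TPM in wild type and at most 1.97 TPM in the null libraries. Neither Elane nor Cd14 was called against wild type. Among 5 natural killer cell markers, Klrb1c was 30.9 and 15.0 TPM in Scribble null and 0.659 and 3.24 TPM in wild type. In Yap1 Taz null it was 5.35 and 2.22 TPM, and in triple null 1.31 and 4.2 TPM. Klrb1c was not called against wild type, and Ncr1, Gzma and Klrd1 were at 0 throughout. The 6 macrophage and dendritic cell markers summed to 17.9 and 26.0 TPM in Scribble null, 23.3 and 21.4 TPM in Yap1 Taz null and 12.9 and 14.7 TPM in triple null, against 9.4 and 12.8 TPM in wild type. Flt3 and Clec9a made up most of this, while C1qa was at 0 and Adgre1 and Itgax were at most 0.348 TPM in every library. Siglech was 1.74 and 1.96 TPM in Scribble null, against 0.46 and 0.578 TPM in wild type, and was not called. Its values were 0.886 and 0.99 TPM in Yap1 Taz null and 0.871 and 1.1 TPM in triple null. Clec9a, a dendritic cell receptor gene, was 8.61 and 11.7 TPM in Scribble null, 14.1 and 13.5 TPM in Yap1 Taz null and 3.4 and 3.58 TPM in triple null, against 2.43 and 3.89 TPM in wild type. It was called in Yap1 Taz null (limma, log2 difference 1.85, adjusted p = 0.0369) and not in Scribble null (1.43, 0.0735). The part of these cells in the Itgam result was not tested.

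Of 24 chemokine and sphingosine-1-phosphate pathway genes, 21 passed the filter and none was called against wild type in any null genotype. The shares of all genes called were 1.30% in Scribble null, 0.990% in Yap1 Taz null and 0.579% in triple null. At such shares no call among 21 genes says little about this list. By limma 4 of the 21 had an unadjusted p under 0.05 in Scribble null (18.2% of all genes), 1 in Yap1 Taz null (14.3%) and 5 in triple null (10.9%). The kinase gene Grk3, whose product desensitises receptors such as CXCR4, came nearest. It was 42.1 and 45.4 TPM in Scribble null, 19.3 and 25.3 TPM in Yap1 Taz null and 40.6 and 27.0 TPM in triple null, against 18.3 and 16.2 TPM in wild type, with a log2 difference of 1.29 in Scribble null (limma, adjusted p = 0.0518). The S1P receptor gene S1pr4 was at 17.7 to 25.5 TPM and S1pr2 at 3.44 to 7.62 TPM in the 8 libraries, and S1pr3 stayed under 1 TPM. Neither S1pr4 nor S1pr2 was called, and their log2 differences from wild type were at most 0.31.

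Klf2 and Cd69 are the known partners of S1pr1 in lymphocytes, Klf2 as an activator of its transcription and CD69 as a protein that draws the receptor off the surface. Klf2 was 17.9 and 18.6 TPM in Scribble null, 20.1 and 14.6 TPM in Yap1 Taz null and 14.1 and 15.3 TPM in triple null, against 52.4 and 19.9 TPM in wild type. The wild-type libraries lay far apart, and no difference was called, at log2 values of −0.80, −0.88 and −1.09 (limma, adjusted p = 0.34, 0.369 and 0.375). Cd69 was 19.2 and 13.8 TPM in Scribble null, 24.4 and 25.1 TPM in Yap1 Taz null and 19.8 and 22.0 TPM in triple null, against 19.1 and 23.2 TPM in wild type, and was not called.

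**Figure D4:**
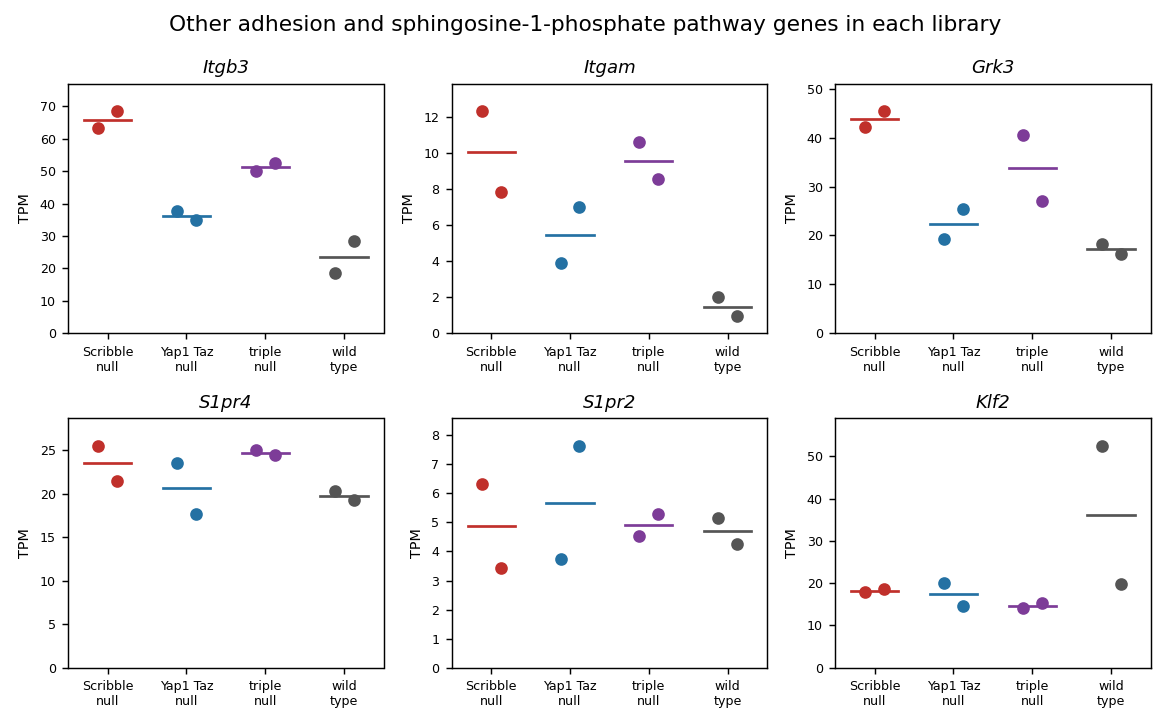
Level in TPM (vertical axis, from 0) of 6 other genes in the 2 libraries (points) of each genotype, with the mean as a line. Itgb3 and Itgam had their highest mean in Scribble null (63.3 and 68.5 TPM, 12.3 and 7.83 TPM), as was Grk3 (42.1 and 45.4 TPM).

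Integrin activators and adhesion adaptors are the proteins that switch integrins on from inside the cell and tie them to actin. Of 22 such genes, 21 passed the filter and none was called against wild type. The shares of all genes called were 1.30% in Scribble null, 0.990% in Yap1 Taz null and 0.579% in triple null. By limma 7 of the 21 had an unadjusted p under 0.05 in Scribble null (18.2% of all genes), 2 in Yap1 Taz null (14.3%) and 2 in triple null (10.9%). Lims1, an adaptor of the integrin-linked kinase, was 40.5 and 50.2 TPM in Scribble null and 83.8 and 72.8 TPM in wild type, a log2 difference of −0.78 (limma, adjusted p = 0.0789). Rap1b, a small GTPase that activates integrins, was 107 and 117 TPM in triple null and 192 and 186 TPM in wild type, a log2 difference of −0.76 (adjusted p = 0.101). Of 12 niche ligand genes, 9 passed and none was called, beside the same shares of all genes called. At an unadjusted p under 0.05 limma gave 2, 3 and 1 of the 9 in Scribble null, Yap1 Taz null and triple null. The shares of all genes at that threshold were again 18.2%, 14.3% and 10.9%. Fn1, the gene of fibronectin, was 13.4 and 17.3 TPM in Yap1 Taz null and 5.38 and 6.50 TPM in wild type, a log2 difference of 1.23 (limma, adjusted p = 0.088). Cxcl12, the ligand of CXCR4, was at most 0.286 TPM in any library.

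The genes whose pattern over the 8 libraries came closest to each of the 9 were taken by Pearson correlation of log2(TPM + 1), among 8487 named protein-coding genes with a mean of at least 10 TPM. Points of a correlation share libraries and normalization, so the values describe these libraries. For S1pr1 they were Adam22 (r = 0.989) and Ddx5 (0.982). Adam22 was 28.8 and 31.7 TPM in Scribble null, 29.8 and 21.5 TPM in Yap1 Taz null and 22.7 and 27.1 TPM in triple null, against 10.6 and 13.8 TPM in wild type. For Itga4 they were Tmem68 (0.995) and Stxbp4 (0.974), and for Cd44 Rock2 (0.984) and Tbc1d10c (0.965). S1pr1 had 108 genes at 0.9 or more, Cd44 49 and Itga4 40, while Itga5 had 3. For Cxcr4 they were Cacna1a (0.96) and Polr2f (0.952), for Itgal Wdyhv1 (0.957), and for Itgb1 Nadsyn1 (0.957) and Pnp (0.937). Itga6 was closest to Dimt1 (0.977) and Cerkl (0.967), Itgb2 to Bex1 (0.911) and Hspa4l (0.911), and Itga5 to Prkd2 (0.93) and Noa1 (0.911). Among the 9 themselves, S1pr1 ran with Cd44 at r = 0.75 and with Itga4 at 0.67, and against Itgal at −0.70, over the 8 libraries. The chains of LFA-1, Itgal and Itgb2, had r = 0.23, and Itga4 and Itgb1, the chains of VLA-4, had r = −0.11.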

How the data were processed

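RNA of sorted stem cells was extracted with RNeasy columns, amplified with Ovation RNA-Seq v2 and made into Nextera XT libraries, per the labels' protocols. The authors deposited TPM values per gene symbol for 8 libraries, per the file headers, each summing to 1000000. The authors also deposited a whole-series table of linear signal values of a unit left unnamed in its header, with 28987 Ensembl identifiers (94.7% matched to a symbol), used here as an alternative. The submitters' processing notes name TopHat and mm10. Not given in the sources used here are the quantifier, its annotation and its strand setting. No value column was left unused.

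Tests used limma 3.58.1 (R 4.3.3) on log2(TPM + 1), with a variance trend and 1 model of group means over all 8 libraries (4 residual and 4 prior degrees of freedom). Genes had to reach 1 TPM in 2 or more libraries, and p-values were adjusted by Benjamini-Hochberg over these 16064 genes for each comparison. The method was tested on simulated data. Coordinates are from GENCODE for GRCm38, which is mm10. Transcripts were aligned with BLAST 2.17.0 to find near-identical copies, at 95% identity over 80% of the shorter length. Itga6 had 1 (Gm29397) and Itgb2 had 1 (Gm14699), so reads of these genes could be split.

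The members and lists were chosen with earlier results of these data known. Named genes were the 9 members, the targeted genes, genes called in each list or otherwise the 3 with the smallest p, and the 2 genes most like each member. Results for a few named genes and for 1 gene list were left out of the text. Other partner, marker and Y-linked genes were named after their values were seen. The replicate numbers were not used to pair the samples in the main model. Correlations of deviations from group means over all genes tested were −0.053 to 0.026, so no broad shift shared by replicate number was seen. These correlations cannot show whether libraries of the same number were prepared together, or whether single genes share such a shift. Alternatives were other pseudocounts, filters, scalings, a replicate block, the whole-series table, only the 2 groups compared and leaving out each library.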

Additional observations from a re-analysis of the deposited data

Results flagged for a closer look

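Itgb1, the shared beta 1 chain, was flagged by a rule on overlap alone. Both libraries of Yap1 Taz null lay below both wild-type ones, while both libraries of triple null lay above them. Libraries did not overlap for 46.6% of all genes in Yap1 Taz null against wild type and for 45.1% in triple null. The share of all genes with opposite directions in these genotypes was not counted. The log2 difference from wild type was −0.17 in Yap1 Taz null and 0.16 in triple null, and neither passed the threshold by limma. The difference between these genotypes, tested directly as triple null against Yap1 Taz null, was 0.33 with an adjusted p of 0.536.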

How the results depend on the processing

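S1pr1 in Scribble null against wild type kept its direction in all 17 alternatives and lost its call in 9. The number of the 9 genes called there was 0 with no filter on low values, 0 with the replicate block and 0 with only the 2 groups compared, and ranged from 0 to 1 when a library was left out. With the replicate block the adjusted p of S1pr1 was 0.0675, and the block changed no other call of the 9 genes. It did end the call of Itgam in Scribble null (0.0806). All other comparisons had 0 of the 9 called under each alternative. All-gene calls in Scribble null against wild type were 209, but 127 with no filter, 110 with the block, 112 in the whole-series table, 63 with only the 2 groups compared and 46 to 227 with a library left out. In Yap1 Taz null they were 159, but 104 in that table, 91 with 2 groups and 52 to 136 with a library left out, and in triple null 93, but 60 in that table and 36 to 88. Median-ratio scaling turned the 95 higher and 114 lower calls of Scribble null into 58 and 199. Triple null against Scribble null gave 34, but 21 in that table, 17 with 2 groups and 19 to 60. Triple null against Yap1 Taz null gave 29, but 17 with no filter, 14 with the block, 19 in that table, 7 with 2 groups and 11 to 22. The departure gave 102, but 66 in that table and 45 to 138.

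Of 909 recomputed values of the 9 genes, 49 turned sign, none of them above 0.37 in size in the main analysis. Median-ratio scaling gave Itga5 −0.15 and Itgb1 −0.12 in Scribble null, Itgb2 −0.09 in triple null, and for the departure Itga5 0.13, Itgb2 0.09, Cxcr4 0.16 and Cd44 0.07. Quantile normalization gave Itga5 −0.09 and Itgb1 −0.03 in Scribble null, Itgb2 −0.06 in triple null, and for the departure Itga5 0.07, Itgb2 0.04 and Cxcr4 0.11. The whole-series table gave Itga5 0.06 and Itgal 0.07 in Yap1 Taz null and Itgal 0.09 in triple null. With a library left out, Scribble null gave Itga5 −0.10 to 0.11, Itga6 −0.11 to 0.43, Itgb1 −0.00 to 0.08 and Itgb2 −0.34 to 0.16. Yap1 Taz null gave Itga5 −0.18 to 0.07 and Itgal −0.47 to 0.14. Triple null gave Itga5 −0.21 to 0.00, Itga6 −0.01 to 0.28, Itgal −0.10 to 0.03, Itgb2 −0.05 to 0.13 and Cxcr4 −0.06 to 0.38. Against Scribble null it gave Itga6 −0.30 to 0.25 and Itgb2 −0.11 to 0.38. Against Yap1 Taz null it gave Itga4 −0.10 to 0.03, Itga5 −0.17 to 0.08, Itga6 −0.21 to 0.07, Itgal −0.17 to 0.43, Cxcr4 −0.78 to 0.04 and S1pr1 −0.30 to 0.21. The departure gave Itga5 −0.17 to 0.07, Itga6 −0.50 to 0.05, Itgb2 −0.33 to 0.16 and Cxcr4 −0.43 to 0.40. The causes were not tested. TPM keeps no depth, so what depth limits is unknown.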
